A study of Mus musculus with 9 samples.

Results

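The MHC class I antigen presentation genes described here are 10 genes picked by symbol from a table of 23358 gene entries: H2-K1, H2-D1, B2m, Tap1, Tap2, Tapbp, Psmb8, Psmb9, Psmb10 and Nlrc5. All 10 had enough counts to be tested, among 13240 tested genes. RNA was sequenced from mesenchymal stem cells (MSC) of adult C57BL/6 mouse marrow at passages 4 to 10, in 9 libraries with 3 biological replicates per group. The siCTL cells received a non-targeting siRNA, the GSK126 cells received the same non-targeting siRNA plus 5 µM GSK126, and the siBcat cells received a siRNA against β-catenin. All 3 groups were held in osteogenic medium with ascorbic acid and β-glycerophosphate and lysed on day 4 after transfection. GSK126 is a small molecule that blocks the methyltransferase Ezh2, the enzyme of Polycomb repressive complex PRC2 that places the repressive H3K27me3 mark. β-catenin, encoded by Ctnnb1, is the transcriptional effector of canonical Wnt signalling and also a part of cell adhesion junctions. The titles of the siBcat samples exclude the inhibitor while their treatment label lists it, and the groups here follow the titles. The labels do not say how many animals gave the cells, so the p values measure the spread between these libraries.

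Class I molecules show peptides from inside the cell to CD8 T cells. The proteasome cuts proteins into peptides, the Tap1 and Tap2 proteins pump them into the endoplasmic reticulum, and tapasin (Tapbp) holds an empty class I molecule at that pump until a peptide fits. The displayed complex is a heavy chain, here H2-K1 or H2-D1, bound to the light chain β2-microglobulin (B2m). Psmb8, Psmb9 and Psmb10 are the immunoproteasome subunits, which can replace the constitutive catalytic subunits Psmb5, Psmb6 and Psmb7 and shift cutting towards peptides that class I molecules bind. Nlrc5 is a transactivator that is recruited to class I promoters by DNA-bound factors of the RFX, CREB/ATF and NF-Y families. Interferons raise many of these genes in most cell types, marrow stromal cells among them, through factors that include Stat2, Irf9 and Irf1.

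The upstream sequences below are shown because the class I heavy chain genes, B2m and the Tap1 and Psmb9 pair are the members that rose in both treated groups, and their promoters can be read side by side. They come from RefSeq (GRCm38.p6), which held 8 of the 10 members; there was no entry for Tap2 or Nlrc5. Each is written 5′ to 3′ on the strand of the first gene named, and capitals mark matches to the motifs searched on both strands.
H2-K1, chr17:34000334-34000467, minus strand, up to the base before the start: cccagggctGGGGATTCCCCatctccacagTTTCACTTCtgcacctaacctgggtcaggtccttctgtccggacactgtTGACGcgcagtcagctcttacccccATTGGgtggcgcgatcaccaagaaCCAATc
H2-D1, chr17:35262914-35263047, plus strand, bases -180 to -47 from the start: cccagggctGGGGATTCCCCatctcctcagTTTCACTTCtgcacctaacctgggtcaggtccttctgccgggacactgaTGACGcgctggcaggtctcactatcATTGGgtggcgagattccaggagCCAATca
B2m, chr2:122147537-122147647, plus strand, bases -150 to -40 from the start: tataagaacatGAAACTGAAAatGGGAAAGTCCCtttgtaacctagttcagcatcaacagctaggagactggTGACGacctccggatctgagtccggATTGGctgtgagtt
Tap1 and Psmb9, chr17:34187331-34187555, plus strand, between the 2 starts: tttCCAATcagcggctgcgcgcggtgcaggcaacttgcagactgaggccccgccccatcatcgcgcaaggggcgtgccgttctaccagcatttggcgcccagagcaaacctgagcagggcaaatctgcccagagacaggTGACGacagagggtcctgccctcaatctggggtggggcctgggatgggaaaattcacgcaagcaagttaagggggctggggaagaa

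The H2-K1 and H2-D1 stretches had 118 identical bases, 15 mismatches and 2 gaps, an identity of 88.7% of aligned bases. Both carried, in the same order, the kappaB motif (GGGA, any 4 bases, CC), the short interferon-response motif GAANNGAAA on the reverse strand, the core TGACG of the CREB/ATF site, and CCAAT in both orientations. RefSeq gave H2-K1 2 starts, and the stretch shown ends before the one at chr17:34000333. In the window before the other, at chr17:34000347, CCAAT matched on the reverse strand only. B2m carried the interferon-stimulated response element (ISRE: GAAA, any 2 bases, GAAA), the kappaB motif, TGACG and the reverse complement of CCAAT. Over 32851 promoter windows of 250 bases, the ISRE was found in 2.98%, GAANNGAAA in 6.31%, the kappaB motif in 17.6%, TGACG in 17.8% and CCAAT in 33.8%. Among the 8 members with an entry, TGACG was in 5, CCAAT in 6 and the kappaB motif in 3. The motif TTCNNNGAA, in 7.02% of windows, matched 1 member, Psmb8, and the ISRE matched 1, B2m. GAANNGAAA, which matched H2-D1 and H2-K1, was added after their sequences had been read, and it is not contained in the ISRE. Tap1 and Psmb9 are transcribed in opposite directions from RefSeq starts 226 bases apart, so their windows overlap and share the same TGACG and CCAAT matches. A match is a string of letters in a window, and factor binding was not analysed here.

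Of the 10 genes, 7 lie on chromosome 17 and 4 of these form one block. In GENCODE M21 (GRCm38), the block Psmb9 (chr17:34181987-34187764, minus strand), Tap1 (chr17:34187553-34197225, plus), Psmb8 (chr17:34197721-34201454, plus) and Tap2 (chr17:34203527-34216321, plus) spans 34335 bases. H2-K1 (chr17:33996017-34000347, minus) and Tapbp (chr17:33915899-33929292, plus) lie to one side of it and H2-D1 (chr17:35262730-35267499, plus) to the other. B2m is at chr2:122147686-122153083 (plus), Psmb10 at chr8:105935735-105938444 (minus) and Nlrc5 at chr8:94434356-94527272 (plus). Tap1 and Psmb9 overlap each other on opposite strands, so the stretch shown above between their RefSeq starts lies within Psmb9 in GENCODE. B2m overlaps Patl2, which is on the other strand. Tapbp overlaps the protein-coding Zbtb22 on its own strand, where stranded counting would not separate reads, and Tapbp, Tap2, Psmb8, Psmb10 and Nlrc5 overlap non-coding genes on the other strand. Whether the counting used strand is not given in the sources used here, so reads in such overlaps cannot be assigned with certainty. These overlaps are those of GENCODE, and the gene coordinates deposited with the counts differ from it. There, Psmb9 ended at chr17:34187330 and Tap1 began at chr17:34187556, so these genes did not overlap as counted. Tapbp began there at chr17:33919478. The other overlaps were not checked in the deposited coordinates. H2-K1 and H2-D1 have near-identical relatives in the class I family, and how reads common to such copies were counted is also not given.

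Library totals ran from 42324200 to 55898774 counts. Ctnnb1, the target of the siRNA, lay at 854 to 879 CPM (counts scaled to library size) in siCTL, 906 to 949.7 in GSK126 and 19.1 to 19.3 in siBcat. Ezh2 RNA, whose protein is what GSK126 acts on, was at 23.1 to 24.4 CPM in siCTL, 26.0 to 29.3 in GSK126 and 27.1 to 28.0 in siBcat, which checks no label. Of 13 stromal markers, 11 averaged at least 1 CPM and Thy1 was at 0 counts in all 9 libraries; the list summed to 29713 to 35106 CPM in siCTL, 38307 to 40832 in GSK126 and 28141 to 30191 in siBcat. Col1a1 and Col1a2 made up most of that sum, and single stromal markers moved within it, with 3 called higher and 3 lower in each comparison with siCTL: Cxcl12 had log2 values of 1.09 in GSK126 and -0.65 in siBcat, Pdgfra -0.59 and -0.29, and Cd44 0.01 (not called) and 0.85. Of 15 markers of macrophages and other haematopoietic cells, which carry class I pathway genes at high levels, 6 were at 0 counts in all libraries, among them Ptprc, Emr1, Tyrobp, Cd3e and Flt3. That list summed to 11.3 to 13.8 CPM in siCTL, 9.26 to 11.4 in GSK126 and 11.0 to 11.98 in siBcat. Most of it was Cd14, at 6.47 to 11.4 CPM over the 9 libraries. Cd14 was called lower in GSK126 (log2 -0.39, adjusted p = 0.0344), a call lost without siCTL replicate 1 or 2 or GSK126 replicate 1 or 2 (adjusted p = 0.134, 0.0606, 0.112 and 0.0527). Lyz2 lay at 0 to 0.0882 CPM in siCTL (at most 4 counts), 0.141 to 0.233 in GSK126 (adjusted p = 0.0566) and 0.292 to 0.486 in siBcat, where it was called higher (adjusted p = 0.00239). Cd68 was called lower in siBcat (log2 -0.67, adjusted p = 0.0383), a call lost with the replicate block (adjusted p = 0.0525) and without siCTL replicate 3, siBcat replicate 1 or siBcat replicate 3 (adjusted p = 0.154, 0.118 and 0.0764). The part of these cells in the results was not tested. The 6 endothelial markers summed to at most 2.26 CPM in any library. GSK126 replicate 3 stood apart from its 2 partners along gene length. Length accounted for 20, 24.7 and 39.2% of the variance of the 3 GSK126 libraries' deviations from their group mean, with the highest value in replicate 3, against at most 1.9% in the other 6 libraries. The shortest 25% of genes lay 0.14 above the group mean on the log2 scale (median) in GSK126 replicate 3 and the longest 25% at -0.16. Among the members the counted lengths ran from 806 bases in Psmb9 and 858 in B2m to 6945 in Nlrc5. Results are therefore given without GSK126 replicate 3 and with each library's length trend removed where either mattered, and that removal also takes out any difference between groups that follows length.

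Levels of the 10 genes can be set side by side only per length, and on that scale (CPM per kb) the control cells held much light chain and little of the transactivator. B2m led at 578 ± 20.6 CPM per kb (SD, n = 3 siCTL libraries), followed by Tapbp at 73.9 ± 7.69, Tap2 at 46.3 ± 3.86, H2-D1 at 36.5 ± 1.72 and Psmb10 at 19.8 ± 1.14. Tap1 at 14.97 ± 0.705 and H2-K1 at 14.2 ± 0.438 came next, then Psmb8 at 8.44 ± 0.230, Psmb9 at 4.69 ± 0.671 and Nlrc5 at 2.25 ± 0.0779. The libraries of Tap1 and H2-K1 overlapped, and no other neighbours in this order did. Among all tested genes, B2m stood at the 99.3th percentile of length-scaled level, H2-D1 at the 84.6th, H2-K1 at the 63.7th, Psmb9 at the 37.6th and Nlrc5 at the 27.1th. In GSK126 the order changed: H2-D1 (59.5 ± 5.59 CPM per kb) lay above Tap2 (42.2 ± 4.03), and H2-K1 (30.8 ± 3.82) lay above Psmb10 (20.1 ± 2.67) and Tap1 (18.9 ± 0.0853). In siBcat, Tap1 (25.3 ± 2.69 CPM per kb) lay above Psmb10 (20.1 ± 2.36) and H2-K1 (19.5 ± 0.902), and these last 2 overlapped.

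**Figure D1:**
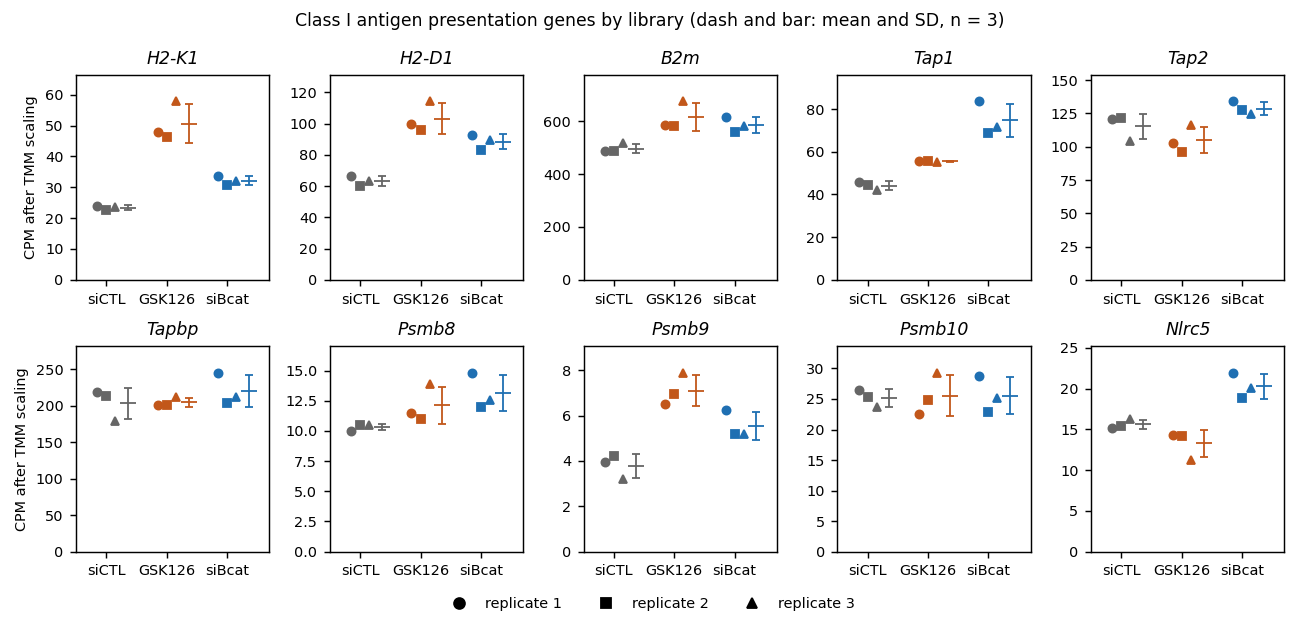
Level of each of the 10 genes in CPM after TMM scaling (y axis, from 0) in the 9 libraries, by group, with the marker shape giving the replicate and the dash and bar the mean and SD (n = 3). H2-K1 is highest in the 3 GSK126 libraries (46.3 to 57.9 CPM), Tap1 and Nlrc5 are highest in the 3 siBcat libraries, and the groups overlap for Psmb10.

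The heavy chains and their light chain rose in both treated groups, the heavy chains more in GSK126. H2-K1, the H-2K heavy chain, had 23.9, 22.6 and 23.8 CPM in siCTL, 47.8, 46.3 and 57.9 under GSK126, and 33.7, 30.7 and 32.1 in siBcat. The 3 groups did not overlap: siCTL was lowest, siBcat lay between, and GSK126 was highest, with its replicate 3 above the other libraries. H2-K1 rose 2.16-fold in GSK126 (log2 fold change 1.11, SE 0.08, adjusted p = 1.46e-06 by edgeR's quasi-likelihood test with Benjamini-Hochberg adjustment over all tested genes) and 1.37-fold in siBcat (log2 0.45, SE 0.08, adjusted p = 0.000935). Over the 19 alternative settings, all of which kept both calls, the log2 value ran from 0.99 to 1.17 in GSK126 and from 0.41 to 0.49 in siBcat. Because these are bulk samples, a change in how many cells carry a transcript and a change in its amount per cell cannot be told apart.

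H2-D1, the H-2D heavy chain, had 66.2, 60.3 and 63.5 CPM in siCTL, 99.6, 96.1 and 114 under GSK126, and 92.6, 83.4 and 89.5 in siBcat. Every treated library lay above every control library, and the GSK126 libraries lay above the siBcat libraries. H2-D1 rose 1.63-fold in GSK126 (log2 0.71, SE 0.07, adjusted p = 1.69e-05) and 1.40-fold in siBcat (log2 0.48, SE 0.07, adjusted p = 0.000198). B2m, the light chain shared by all class I molecules, had 486, 486 and 516 CPM in siCTL, 587, 581 and 675 under GSK126, and 617, 558 and 581 in siBcat. Its treated libraries all exceeded its controls, and GSK126 and siBcat overlapped each other. B2m rose 1.24-fold in GSK126 (log2 0.31, SE 0.06, adjusted p = 0.00388) and 1.18-fold in siBcat (log2 0.24, SE 0.06, adjusted p = 0.0115). The B2m value in GSK126 fell to 0.17 on the log2 scale with the length trend removed (adjusted p = 0.0136) and was 0.23 without GSK126 replicate 3. The B2m call in siBcat was lost without siCTL replicate 2 (adjusted p = 0.0619) and without siBcat replicate 1 (log2 0.19, adjusted p = 0.0746).

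Relative to B2m, both heavy chains stood higher in every treated library than in any control, as ratios of length-scaled levels within each library show. H2-K1 stood at 2.57, 2.43 and 2.40% of B2m in siCTL, 4.24, 4.15 and 4.47% under GSK126, and 2.84, 2.87 and 2.88% in siBcat. H2-D1 stood at 6.74, 6.14 and 6.08% of B2m in siCTL, 8.38, 8.17 and 8.38% under GSK126, and 7.42, 7.39 and 7.62% in siBcat. Both ratios were separated between all 3 groups, with siCTL lowest and GSK126 highest. H2-K1 relative to H2-D1 was 38.1, 39.6 and 39.5% in siCTL, 50.6, 50.8 and 53.4% under GSK126, and 38.3, 38.8 and 37.8% in siBcat. That ratio was higher in every GSK126 library than in any other library, while siCTL and siBcat overlapped. These ratios were chosen with the levels known and are given as a description; B2m and the heavy chains also differ in counted length.

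**Figure D2:**
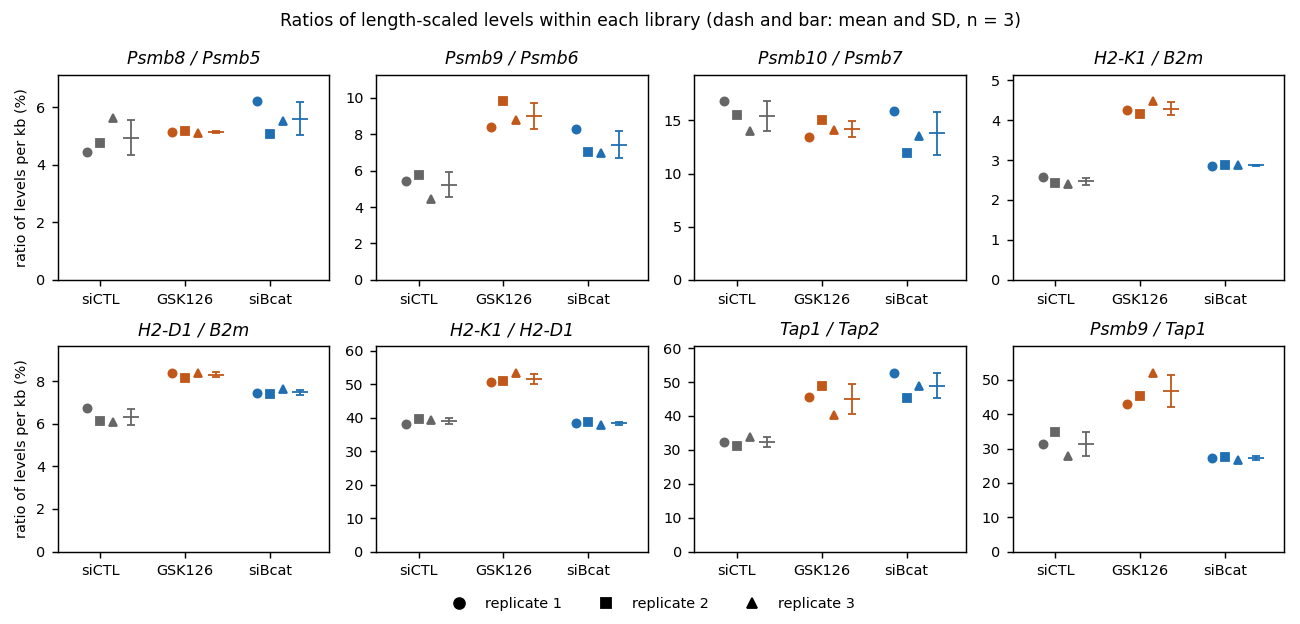
Ratio of length-scaled levels of pairs of genes within each library, in % (y axis, from 0), for the 9 libraries by group, with the marker shape giving the replicate and the dash and bar the mean and SD (n = 3). Psmb9 relative to Psmb6 and H2-K1 relative to B2m are higher in every GSK126 library than in any siCTL library, and Psmb10 relative to Psmb7 overlaps between groups.

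In the transport and loading step, Tap1 rose in both treated groups while Tap2 and Tapbp did not pass the test in either. Tap1, one chain of the peptide pump, had 46.0, 44.6 and 41.9 CPM in siCTL, 55.5, 55.9 and 55.4 under GSK126, and 83.7, 68.6 and 71.9 in siBcat. The 3 groups were separate, siBcat highest, and siBcat replicate 1 was the highest library. Tap1 rose 1.26-fold in GSK126 (log2 0.33, SE 0.07, adjusted p = 0.00504) and 1.69-fold in siBcat (log2 0.76, SE 0.07, adjusted p = 4.98e-06). Without siBcat replicate 1 the siBcat value was 0.66 (adjusted p = 2.6e-05).

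Tap2, the other chain of the pump, had 120.5, 121 and 104 CPM in siCTL, 103, 96.4 and 116 under GSK126, and 134, 128 and 124 in siBcat. The GSK126 and siCTL libraries overlapped, while all 3 siBcat libraries lay above both. Its log2 values were -0.13 in GSK126 (SE 0.08, adjusted p = 0.223) and 0.16 in siBcat (SE 0.08, adjusted p = 0.127). Without GSK126 replicate 3, both passed, at -0.21 (adjusted p = 0.0196) and 0.16 (adjusted p = 0.0301), and both also passed with the length trend removed, at -0.19 (adjusted p = 0.0324) and 0.17 (adjusted p = 0.0416). The siBcat value passed as well in a fit of siBcat and siCTL alone. Tapbp, tapasin, had 218, 213 and 179 CPM in siCTL, 201, 201 and 211 under GSK126, and 245, 204 and 211 in siBcat, with overlap between all groups. Its log2 value in GSK126 was 0.01 (SE 0.08, adjusted p = 0.956), with either sign over the alternatives, and in siBcat 0.11 (SE 0.08, adjusted p = 0.311). Tap1 relative to Tap2, per length, was 32.2, 31.1 and 33.9% in siCTL, 45.5, 49.0 and 40.3% under GSK126, and 52.7, 45.4 and 48.8% in siBcat. Every treated library had a higher Tap1 share than every control library, and the treated groups overlapped.

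Among the immunoproteasome subunits, Psmb9 rose in both groups, Psmb8 passed the test in siBcat, and Psmb10 passed in neither. Psmb9, the β1i subunit whose start lies beside that of Tap1, had 3.94, 4.23 and 3.18 CPM in siCTL, 6.50, 6.94 and 7.88 under GSK126, and 6.23, 5.18 and 5.21 in siBcat. The 3 groups did not overlap, with GSK126 highest. Psmb9 rose 1.88-fold in GSK126 (log2 0.91, SE 0.13, adjusted p = 0.000346) and 1.46-fold in siBcat (log2 0.55, SE 0.14, adjusted p = 0.00741). The log2 value ran from 0.77 to 0.98 in GSK126 and from 0.44 to 0.62 in siBcat over the 19 alternatives, which kept both calls.

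Psmb8, the β5i subunit, had 10.0, 10.5 and 10.5 CPM in siCTL, 11.5, 11.0 and 13.9 under GSK126, and 14.8, 12.02 and 12.6 in siBcat. All treated libraries lay above all controls, by a narrow margin in GSK126 replicates 1 and 2. Its log2 value was 0.24 in GSK126 (SE 0.11, adjusted p = 0.124) and it rose 1.27-fold in siBcat (log2 0.35, SE 0.11, adjusted p = 0.0226). The siBcat call was lost without siCTL replicate 1 (adjusted p = 0.0713), siCTL replicate 2 (adjusted p = 0.0635) or siBcat replicate 1 (log2 0.24, adjusted p = 0.121). Psmb10, the β2i subunit, had 26.5, 25.3 and 23.6 CPM in siCTL, 22.6, 24.8 and 29.3 under GSK126, and 28.7, 22.8 and 25.2 in siBcat, with overlap throughout. Its log2 value was 0.02 in both treated groups (SE 0.10, adjusted p = 0.887 in GSK126 and 0.885 in siBcat), and the sign changed with the setting.

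The constitutive counterparts did not pass the test in either comparison with siCTL. Psmb5, Psmb6 and Psmb7 had log2 values of 0.17, 0.13 and 0.14 in GSK126 (adjusted p = 0.199, 0.195 and 0.196) and 0.16, 0.04 and 0.19 in siBcat (adjusted p = 0.201, 0.673 and 0.0753). Psmb6 passed in GSK126 without GSK126 replicate 2 (log2 0.20, adjusted p = 0.0353). Psmb7 passed in siBcat without GSK126 replicate 3 (log2 0.19, adjusted p = 0.000201) and in a fit of siBcat and siCTL alone (log2 0.18, adjusted p = 0.0011). Per length they stood far above the immunoproteasome subunits in siCTL, at 172, 89.7 and 128 CPM per kb. Psmb9 relative to Psmb6, the subunit it can replace, was 5.45, 5.78 and 4.44% in siCTL, 8.39, 9.80 and 8.79% under GSK126, and 8.30, 7.04 and 6.95% in siBcat. All treated libraries exceeded all controls in that ratio. Psmb8 relative to Psmb5 averaged 4.94 ± 0.602% in siCTL, 5.14 ± 0.0324% in GSK126 and 5.60 ± 0.574% in siBcat, and Psmb10 relative to Psmb7 averaged 15.4 ± 1.40, 14.2 ± 0.783 and 13.8 ± 2.00% in the same order (SD, n = 3 each). In both of these the libraries of the groups overlapped.

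Nlrc5, the class I transactivator, rose in siBcat and was lower, without passing the test, in GSK126. It had 15.2, 15.5 and 16.2 CPM in siCTL, 14.3, 14.2 and 11.3 under GSK126, and 21.9, 18.9 and 20.1 in siBcat. The 3 groups were separate, in the order GSK126, siCTL, siBcat, with GSK126 replicate 3 lowest. Nlrc5 rose 1.30-fold in siBcat (log2 0.38, SE 0.10, adjusted p = 0.00835), a call lost without siBcat replicate 1 (log2 0.31, adjusted p = 0.0513). Its log2 value in GSK126 was -0.24 (SE 0.10, adjusted p = 0.0935), and -0.13 without GSK126 replicate 3. H2-K1, H2-D1 and Psmb9 had their highest levels in GSK126, where Nlrc5 had its lowest. Tap1 and Tap2 had theirs in siBcat, where Nlrc5 had its highest. Whether Nlrc5 had a part in any of these levels was not tested.

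In all, 5 of the 10 genes were called higher in GSK126 and 0 lower, where 25% of all tested genes were called, 14.3% higher and 10.7% lower. The median log2 value of the 10 was 0.27, against 0.0063 over all tested genes. Groups did not overlap for 6 of the 10 upwards and 1 downwards, where 42.1% of all tested genes had no overlap, 21.9% upwards and 20.2% downwards. In siBcat, 7 were called higher and 0 lower, where 35.2% of tested genes were called, 17.7% higher and 17.5% lower. The median was 0.36 against 0.0024 over all genes, and 8 of the 10 lay without overlap above siCTL, where 28% of tested genes did so and 55.2% had no overlap in either direction. Without siBcat replicate 1, 4 remained called higher in siBcat: H2-K1, H2-D1, Tap1 and Psmb9. Without GSK126 replicate 3, the same 5 stayed called higher in GSK126, and Tap2 was called lower. The median of the 10 in GSK126 was then 0.18, and 0.13 with the length trend removed. Both comparisons use the same 3 control libraries, so their values are not independent of each other. Where edgeR's test called 0 lower, DESeq2 also called 0 in both comparisons, and at an unadjusted edgeR p under 0.05 there were 1 in GSK126 (Nlrc5) and 0 in siBcat.

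**Figure D3:**
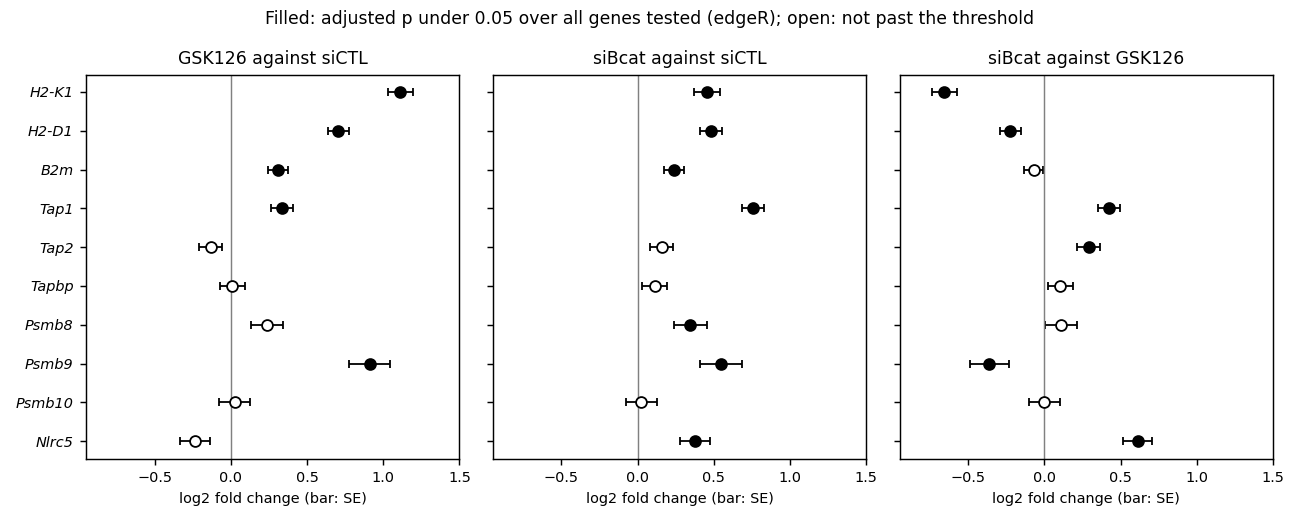
Log2 fold change (x axis) with its SE (bar) of the 10 genes in the 3 comparisons, filled where the adjusted p of edgeR's quasi-likelihood test was under 0.05 over all tested genes. The largest values are H2-K1 in GSK126 (1.11), Psmb9 in GSK126 (0.91) and Tap1 in siBcat (0.76), and siBcat against GSK126 holds 3 filled points on each side of 0.

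The direct comparison of siBcat with GSK126, in which siCTL enters through the shared estimate of spread and scaling alone, divided the genes. Nlrc5, Tap1 and Tap2 were higher in siBcat, and H2-K1, H2-D1 and Psmb9 were higher in GSK126. In this comparison 41.2% of all tested genes were called, 19.3% higher and 21.9% lower, so 6 called of 10 is to be read against a high background. The groups did not overlap for the same 6, where 52.5% of tested genes had no overlap, and the median of the 10 was 0.05 against -0.01 over all genes. The largest differences were in H2-K1, 1.58-fold lower in siBcat (log2 -0.66, SE 0.08, adjusted p = 3.37e-05), and Nlrc5, 1.53-fold higher (log2 0.61, SE 0.10, adjusted p = 0.00025). Tap1 was 1.34-fold higher in siBcat (log2 0.43, SE 0.07, adjusted p = 0.000417) and Tap2 1.22-fold higher (log2 0.29, SE 0.08, adjusted p = 0.00824). These 4 calls held under all 19 alternatives.

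H2-D1 was 1.17-fold lower in siBcat than in GSK126 (log2 -0.22, SE 0.07, adjusted p = 0.0224), and Psmb9 1.28-fold lower (log2 -0.36, SE 0.13, adjusted p = 0.041). Both were less stable than the other calls. The H2-D1 call was lost without siBcat replicate 2 (adjusted p = 0.101) or siBcat replicate 3 (adjusted p = 0.0612) and in a fit of these 2 groups alone (adjusted p = 0.06), and the log2 value shrank to -0.13 with the length trend removed (adjusted p = 0.0579). The Psmb9 call was lost without siCTL replicate 1 (adjusted p = 0.0549), GSK126 replicate 2 (0.0655) or 3 (0.0996), or siBcat replicate 2 (0.136) or 3 (0.133). B2m, Tapbp, Psmb8 and Psmb10 did not pass, with log2 values of -0.07, 0.11, 0.11 and 0.00 and SE of 0.06, 0.08, 0.10 and 0.10. Psmb9 and Tap1, which share the stretch between their RefSeq starts, differed in opposite directions here. Psmb9 relative to Tap1, per length, was 31.3, 34.7 and 27.8% in siCTL, 42.9, 45.4 and 52.0% under GSK126, and 27.3, 27.6 and 26.5% in siBcat. Every GSK126 library had a higher ratio than every other library. The siBcat libraries lay below the siCTL libraries by a narrow margin, 27.6% in siBcat replicate 2 against 27.8% in siCTL replicate 3. Psmb9 had 256 and 150 counts in those libraries, so counting error adds to these ratios. Psmb9 is the shorter gene of the pair and the part of length in this ratio was not tested.

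**Figure D4:**
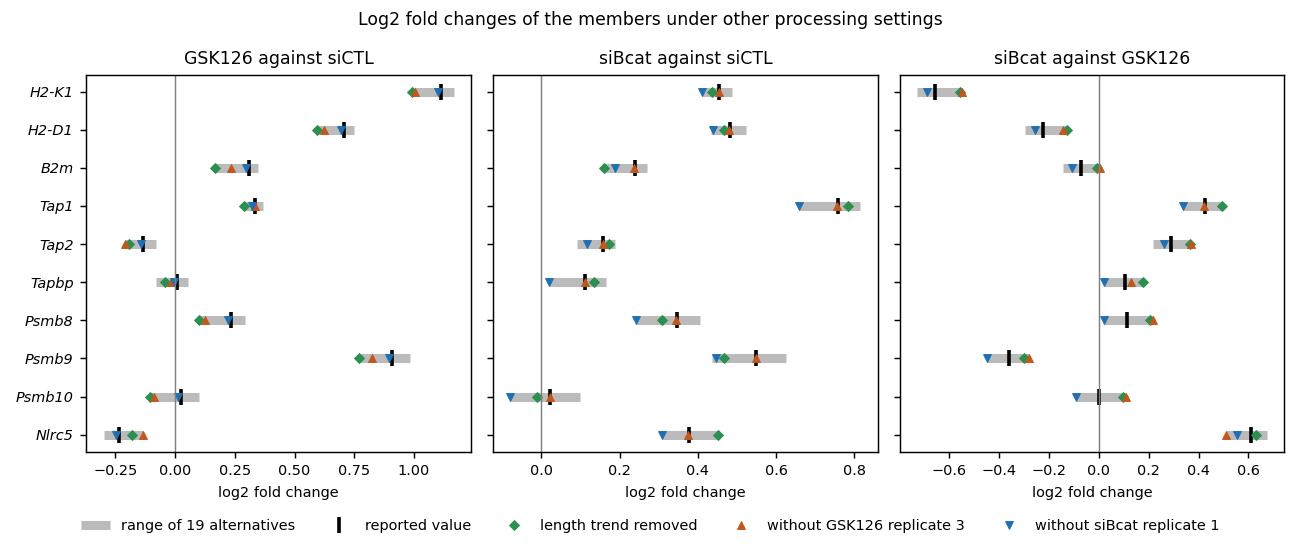
Log2 fold change (x axis) of the 10 genes in the 3 comparisons as reported (black bar) and its range over 19 alternative settings (grey), with the values after removal of the length trend, without GSK126 replicate 3 and without siBcat replicate 1 marked. Tapbp in GSK126, Psmb10 in all 3 comparisons and B2m between siBcat and GSK126 have ranges on both sides of 0, and the ranges of H2-K1 do not reach 0.

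Of the factors that act on class I promoters, those called in siBcat went in both directions. Of 18 such genes in a list that leaves out Nlrc5, all tested, 0 were called higher and 1 lower under GSK126, and 5 higher and 6 lower in siBcat, with medians of -0.08 and -0.16. Over all tested genes 25% were called in GSK126 and 35.2% in siBcat, shares that serve for the gene lists below as well. At an unadjusted p under 0.05, edgeR's test gave 1 higher and 5 lower in GSK126, and DESeq2 called 0 higher and 3 lower there.

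Irf9, the DNA-binding part of the type I interferon complex, had 17.7, 16.5 and 19.9 CPM in siCTL, 19.2, 18.8 and 20.5 under GSK126, and 50.8, 30.0 and 40.4 in siBcat. Stat2, its partner, had 23.6, 19.8 and 24.1 CPM in siCTL, 23.6, 24.9 and 23.3 under GSK126, and 72.1, 41.0 and 49.9 in siBcat. For both, siBcat lay apart from the other 2 groups, which overlapped. In both, siBcat replicate 1 was the highest library, as it was for Tap1, Tap2, Tapbp, Psmb8 and Nlrc5. Within siBcat, replicate 1 was the highest library for every member, those that passed no test included. Irf9 rose 2.23-fold in siBcat (log2 1.16, SE 0.16, adjusted p = 0.000347) and Stat2 2.41-fold (log2 1.27, SE 0.18, adjusted p = 0.000516), while in GSK126 their log2 values were 0.11 (adjusted p = 0.653) and 0.09 (adjusted p = 0.749). Compared directly, Irf9 and Stat2 were higher in siBcat than in GSK126 by 1.05 (adjusted p = 0.000491) and 1.18 (adjusted p = 0.000615) on the log2 scale. Without siBcat replicate 1 the siBcat values against siCTL were 0.95 for Irf9 and 1.00 for Stat2.

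Irf1 and Rfx5 moved the other way. Irf1, an interferon-induced activator of class I genes, had 36.1, 37.8 and 37.3 CPM in siCTL, 32.2, 33.7 and 36.5 under GSK126, and 29.8, 28.6 and 30.4 in siBcat. It fell in siBcat by 0.33 on the log2 scale (SE 0.06, adjusted p = 0.00129), and its GSK126 value was -0.12 (adjusted p = 0.174; -0.17 and 0.0285 without GSK126 replicate 3). Rfx5, a DNA-binding subunit to which Nlrc5 is recruited, had 24.2, 24.3 and 24.1 CPM in siCTL, 21.5, 20.8 and 18.2 under GSK126, and 21.3, 19.3 and 19.7 in siBcat. It fell by 0.26 in GSK126 (adjusted p = 0.0227) and by 0.27 in siBcat (adjusted p = 0.0149). The GSK126 call was lost without any 1 of the siCTL replicates 1, 2 or 3 (adjusted p = 0.0538, 0.0595 and 0.0508), and the siBcat call without siBcat replicate 2 or 3 (adjusted p = 0.0647 and 0.0578). Creb1, a factor that binds TGACG-type sites, fell in siBcat by 0.51 (adjusted p = 0.000645), and Stat3, a cytokine-responsive factor, rose there by 0.28 (adjusted p = 0.00117).

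**Figure D5:**
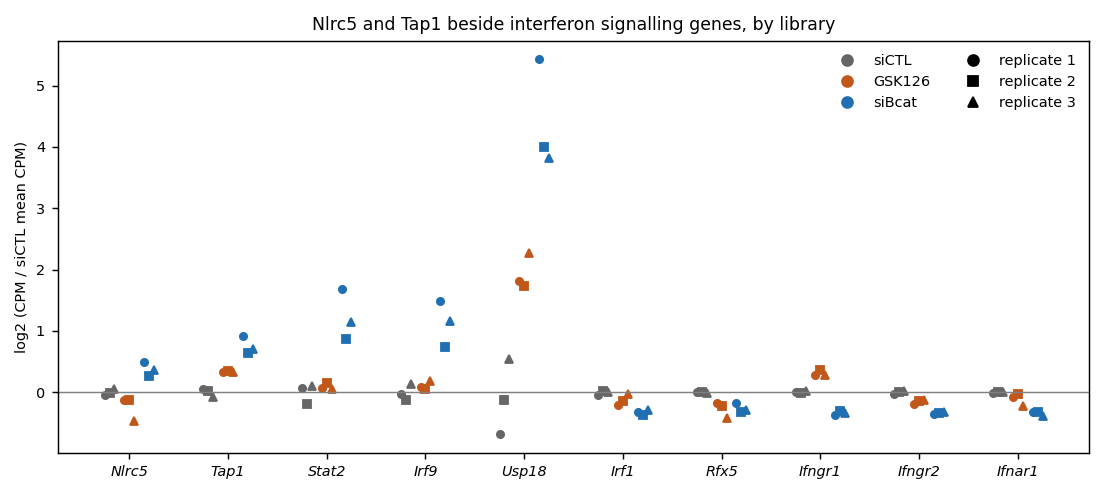
Log2 ratio of each library's CPM to the siCTL mean (y axis) for Nlrc5, Tap1 and 8 interferon signalling or promoter-binding genes, coloured by group, with the marker shape giving the replicate. The siBcat libraries are above siCTL for Nlrc5, Tap1, Stat2, Irf9 and Usp18, with replicate 1 highest, and below siCTL for Irf1, Rfx5, Ifngr1, Ifngr2 and Ifnar1.

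Of the interferon genes looked up, 8 were in the table, and none had more than 2 counts in a library. Ifnb1, Ifna1, Ifna2, Ifna4, Ifna5, Ifnk and Ifng were at 0 counts in all 9 libraries, and 3 counts, the limit a count of 0 allows, corresponded to at most 0.0730 CPM in any library, or 0.146 CPM if each read pair was counted as 2, as the even counts allow. Ifne had 2 counts in each of siCTL replicates 2 and 3 and 0 elsewhere. Of 13 tested genes of interferon reception and its brakes, 2 were called higher and 4 lower under GSK126, and 1 higher and 3 lower in siBcat, beside the 25% and 35.2% called over all tested genes. Usp18, a brake on the type I receptor that is itself interferon-induced, had 0.181, 0.264 and 0.424 CPM in siCTL, 1.02, 0.965 and 1.40 under GSK126, and 12.5, 4.66 and 4.11 in siBcat. The groups were separate, and Usp18 rose 23.9-fold in siBcat (log2 4.58, SE 0.55, adjusted p = 0.000188), with 3.89 as the lowest value over the alternatives. In GSK126 its value was 1.94 (SE 0.65, adjusted p = 0.0553), and 9 of 19 alternatives took it past the threshold, among them those without siBcat replicate 1, 2 or 3 (adjusted p = 0.00093, 0.0409 and 0.031).

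Of the interferon receptor chains, Ifngr1, Ifngr2 and Ifnar1 fell in siBcat, and Ifngr1 rose in GSK126. Ifngr1, the ligand-binding chain of the interferon-γ receptor, had 91.3, 90.7 and 92.3 CPM in siCTL, 112, 118 and 111 under GSK126, and 70.5, 73.9 and 72.0 in siBcat. It rose 1.24-fold in GSK126 (log2 0.32, SE 0.05, adjusted p = 0.000462) and fell by 0.34 on the log2 scale in siBcat (SE 0.05, adjusted p = 0.000146). Compared directly, siBcat had 1.58-fold less Ifngr1 RNA than GSK126 (log2 -0.66, adjusted p = 3.97e-07). Ifngr2 and Ifnar1, chains of the interferon-γ and type I receptors, fell in siBcat by 0.34 each (adjusted p = 9.27e-05 and 0.000448). Ifnar2 and Il10rb, other receptor chains named after their values were seen, did not pass there, at -0.09 (adjusted p = 0.203) and -0.15 (adjusted p = 0.0546). Ifngr2 in GSK126 was at -0.15 (adjusted p = 0.0252), a call lost in 5 of 19 alternatives, among them those without siCTL replicate 2 or 3 or GSK126 replicate 1 (adjusted p = 0.0598, 0.0602 and 0.0776). Jak1, a kinase of both receptors, fell in GSK126 by 0.25 (adjusted p = 0.00366). The calls on Ifngr1, Ifngr2 in siBcat, Ifnar1 and Jak1 held under all 19 alternatives.

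Other class I heavy chains and class I-like genes were called in both directions. Of 27 listed, 25 were in the table and 12 were tested; 1 was called higher and 2 lower under GSK126, and 3 higher and 4 lower in siBcat, with medians of -0.05 and 0.18. These 3 calls of 12 in GSK126 equal the 25% over all tested genes, and 7 of 12 in siBcat stand beside 35.2%. The largest change in GSK126 was H2-Q4, a class I gene of the Q region, named here after its values were seen because it fell under the level required of named genes. It had 0.226, 0.309 and 0.212 CPM in siCTL, 1.13, 0.781 and 1.13 under GSK126, and 0.536, 0.607 and 0.306 in siBcat. The GSK126 libraries were above all others, a 4.06-fold rise against siCTL (log2 2.02, SE 0.35, adjusted p = 0.00103), and the siBcat value of 0.95 did not pass (adjusted p = 0.0676). These levels are low, and reads that H2-Q4 shares with other class I genes could have been counted here. H2-T23 and H2-T22, heavy chains of the T region also named after their values were seen, were called higher in siBcat, at 0.41 (SE 0.13, adjusted p = 0.0264) and 0.38 (SE 0.14, adjusted p = 0.0472). H2-T23 had 29.1, 27.0 and 21.7 CPM in siCTL, 30.2, 34.0 and 35.8 under GSK126, and 40.7, 30.9 and 31.8 in siBcat, so both treated groups lay above siCTL, and its GSK126 value was 0.36 (adjusted p = 0.0568). Its siBcat call was lost in 5 of 19 alternatives, those without siCTL replicate 2 or 3, GSK126 replicate 3 or siBcat replicate 1 among them (adjusted p = 0.0588, 0.0832, 0.0805 and 0.113), and its GSK126 value passed in 5, among them those without siCTL replicate 1 or siBcat replicate 1 (adjusted p = 0.0408 and 0.0323). The H2-T22 call was lost in 14 of 19, including without each library in turn except siBcat replicate 3 (adjusted p = 0.0513 to 0.143). H2-M3, another heavy chain of this list named after its values were seen, was called lower in siBcat. It had 6.29, 8.37 and 9.46 CPM in siCTL, 7.21, 7.76 and 8.96 under GSK126, and 6.33, 6.15 and 5.78 in siBcat. Its log2 value in siBcat ran from -0.55 to -0.27 over the alternatives, and the call was lost in 5 of 19.

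Among the class I-like genes, Cd1d1, which presents lipids, fell in siBcat by 1.54 on the log2 scale (SE 0.19, adjusted p = 3.91e-05), from 3.76, 3.83 and 4.63 CPM to 0.974, 1.46 and 1.75. Mr1, which presents small metabolites to a class of innate T cells, fell in both groups, by 0.33 in GSK126 (adjusted p = 0.00615) and 0.31 in siBcat (adjusted p = 0.00565). Fcgrt, the neonatal Fc receptor, which also binds B2m, fell in siBcat by 0.26 (adjusted p = 0.0084). Procr, a class I-like receptor for protein C, had a log2 value of -0.43 in GSK126 (adjusted p = 0.0364) and 0.47 in siBcat (adjusted p = 0.013). The GSK126 call on Procr was lost in 7 of 19 alternatives, among them those without siCTL replicate 1 or 2, GSK126 replicate 1 or 2 and siBcat replicate 2 (adjusted p = 0.0975, 0.108, 0.118, 0.0594 and 0.051), and the siBcat call without siCTL replicate 3 or siBcat replicate 3 (adjusted p = 0.0547 and 0.0609).

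Chaperones and peptide-trimming enzymes, 19 genes all tested, had 2 called higher and 3 lower in GSK126 and 5 higher and 3 lower in siBcat, with medians of -0.03 and 0.0026, again beside 25% and 35.2% called over all tested genes. Calr, calreticulin, which folds the heavy chain beside tapasin, had 716, 734 and 723 CPM in siCTL, 746, 765 and 835 under GSK126, and 922, 939 and 922 in siBcat. It rose 1.28-fold in siBcat (log2 0.36, SE 0.05, adjusted p = 0.000145), and the siBcat libraries lay above all others. Blmh, a cytosolic protease that can trim peptides, had 45.2, 44.3 and 48.6 CPM in siCTL, 50.9, 51.7 and 61.8 under GSK126, and 17.3, 17.1 and 17.2 in siBcat. It fell 2.67-fold in siBcat (log2 -1.42, SE 0.08, adjusted p = 4.93e-08). In GSK126 it was called higher (log2 0.25, SE 0.07, adjusted p = 0.0261), a call lost in 4 of 19 alternatives. In siBcat, Npepps, a cytosolic aminopeptidase, fell by 0.50 (adjusted p = 8.07e-06), and Lap3, another aminopeptidase, rose by 0.31 (adjusted p = 0.000338). Npepps was also called lower in GSK126, by 0.18 (adjusted p = 0.0183), a call lost without siCTL replicate 3 (adjusted p = 0.0632). In GSK126, Hspa5, the reticulum chaperone BiP, rose by 0.20 (adjusted p = 0.00717), and Nrd1, a cytosolic metalloprotease, fell by 0.17 (adjusted p = 0.0182; 0.0564 without siCTL replicate 3). Hspa5 was also called higher in siBcat, at 626 to 655 CPM against 562 to 578 in siCTL. Its log2 value there ran from 0.13 to 0.19 over the alternatives, and the call was lost in 3 of 19. Erap1, which trims peptides in the reticulum, and Pdia3 and Canx, which fold the heavy chain, were named after their values were seen. None of the 3 passed in either comparison by edgeR's test, with log2 values from -0.07 to 0.11, but Pdia3 passed in siBcat without GSK126 replicate 3 (log2 0.11, adjusted p = 0.00721). Pdia3 also passed there with the length trend removed (log2 0.13, adjusted p = 0.0488) and in a fit of siBcat and siCTL alone (log2 0.099, adjusted p = 0.0188).

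Proteasome caps, assembly factors and the constitutive subunits, 12 genes all tested, had 1 called higher and 1 lower in GSK126 and 3 higher and 0 lower in siBcat, with medians of 0.17 and 0.12, where 25% and 35.2% of all tested genes were called. Both DESeq2 and edgeR's unadjusted p under 0.05 also gave 0 lower in siBcat. Psme1 and Psme2, the interferon-induced PA28 cap, did not pass in either: 0.17 and 0.19 in GSK126 (adjusted p = 0.179 and 0.0649), -0.05 and -0.09 in siBcat (adjusted p = 0.678 and 0.33). Psme2 passed in GSK126 without GSK126 replicate 1 (log2 0.24, adjusted p = 0.0332), and it was called lower in siBcat with the length trend removed (log2 -0.16, adjusted p = 0.0157) and in a fit of those 2 groups alone (log2 -0.10, adjusted p = 0.0483). This pair was also named after its values were seen. Psme3, the nuclear PA28γ cap, rose in siBcat by 0.26 (adjusted p = 0.000606). Psme4, the PA200 cap, fell in GSK126 by 0.32 (adjusted p = 0.00277), and this call and that on Psme3 held under all 19 alternatives. In siBcat Psme4 was called higher, the other way. That call was lost in 11 of the 19 alternatives, over which its log2 value ran from 0.14 to 0.25. Of 12 class II genes, 4 were tested, with 1 called higher in GSK126, 2 called higher in siBcat and 0 lower in either, beside the same 25% and 35.2%. H2-DMb1, which helps load class II molecules, was called higher in both, at 0.67 in GSK126 (adjusted p = 0.00757) and 0.63 in siBcat (adjusted p = 0.00775). Its level was 2.34 to 3.17 CPM in siCTL, 3.72 to 5.09 in GSK126 and 3.90 to 4.41 in siBcat, and the class II transactivator Ciita was at or under 0.220 CPM in every library. The other call in siBcat was Cd74, which fell under the level required of named genes. It had 0.529 to 0.724 CPM in siCTL, 0.459 to 0.660 in GSK126 and 0.925 to 1.23 in siBcat, and its call was lost in 4 of 18 alternatives.

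Across the 9 libraries the 10 genes did not follow one course. As Pearson correlations of log2 CPM, given as a description because the points share groups and libraries, H2-K1 ran with H2-D1 (r = 0.95), Psmb9 (0.93) and B2m (0.88) and against Nlrc5 (-0.48). Tap1 ran with Psmb8 (0.81), Nlrc5 (0.62), Psmb9 (0.56) and Tap2 (0.53). Among 11456 genes averaging at least 1 CPM, those most like the mean course of the 10 were Ctsz (0.970), Cd3eap (0.968), Phgdh (0.966), Apeh (0.959) and Xpnpep1 (0.956). The 2 genes nearest H2-K1 were Hist1h1c (0.996) and Pcna (0.995), and those nearest H2-D1 were Myl9 (0.989) and Gins2 (0.978). Nearest Tap1 were Lgals3bp (0.992) and Dnajb5 (0.989), and nearest Nlrc5 were Rad54l2 (0.994) and Eif2ak2 (0.992). Psmb9 lay nearest Tubb4b (0.983) and Ggt7 (0.982), B2m nearest Xpnpep1 (0.981) and Acat1 (0.978), and Psmb8 nearest Apeh (0.949) and Klhdc4 (0.946). For the genes that passed no test against siCTL, the neighbours were, for Tap2, Stard3 (0.956) and Trim46 (0.953), for Tapbp, Gmppa (0.938) and Akt1 (0.925), and for Psmb10, Tmem159 (0.888) and Tor1a (0.872). With 9 libraries in 3 groups, any gene with the same group means and spread scores high on this measure.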

How the data were processed

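RNA was sequenced from 9 libraries, 3 per group. TopHat2 2.0.6, HTSeq and bcl2fastq are the tools, and mm10 the build, in the submitters' processing notes; for annotation, settings and any use of strand the sources used here give nothing. What the authors deposited is a raw count per gene and library; the gene length beside it, per the file headers, is a coding length in bases. All counts were even (0 odd values). Of its entries, 69 share 26 names. Another 6 columns of per-sample values, and the H3K27me3 ChIP-seq samples, stayed out of the work.

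Sample titles gave the groups. With edgeR 4.0.16 in R 4.3.3, filterByExpr by group (minimum count 10, minimum total 15) left 13240 genes and removed 10118. A quasi-likelihood model with TMM scaling and robust estimation was fitted to all 9 libraries, with the group as its only term, 6 residual degrees of freedom and a common biological coefficient of variation of 8.12%. F-tests were adjusted by Benjamini-Hochberg over all tested genes, with a threshold of 0.05. SE is that of the log2 fold change; levels are CPM after TMM scaling with the SD over 3 libraries, and intervals and floors cover counting error only. The test was tried on simulated data with known changes before use. Replicates of a group differed by more than counting noise (chi-square of halved counts), and all were kept as separate samples. Each library's deviation from the gene means was fitted against log gene length by loess (span 0.5), and that trend was removed as an alternative; the share of variance by length is given for deviations from group means. The other alternatives were RLE factors, library size only, no filter, at least 1 CPM in 3 libraries, a replicate block, DESeq2 1.42.0, halved counts, non-robust estimation, a fit of only the groups compared, and each library left out.

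The members and gene lists were chosen with earlier results of these data known. Named genes are all 10 members and, from each other list, up to 4 genes of smallest adjusted p in siBcat and up to 2 in GSK126, past the threshold and averaging at least 1 CPM; exceptions are said to be so. Psmb5, Psmb6, Psmb7, Irf1, Rfx5 and Irf9 were always named. Some genes of these lists enter the counts but are not reported here by name. Likeness is Pearson's r of log2 CPM (prior count 2). Promoter windows come from RefSeq (GRCm38.p6) and gene positions from GENCODE M21; motifs and figures used Python 3.11.15 with Biopython 1.88, pandas 2.3.3 and matplotlib 3.10.9.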

Additional observations from a re-analysis of the deposited data

How the results depend on the processing

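Each of the 30 log2 fold changes of the 10 genes was recomputed under 19 alternatives. Of these 570 values, 524 kept their direction and their side of the threshold, 16 lost a call, 5 gained one and 25 changed sign, none of the last with a call on either side; the cause was not tested beyond the settings themselves. The 16 lost and 5 gained calls concern H2-D1 and Psmb9 between siBcat and GSK126, B2m, Nlrc5 and Psmb8 in siBcat, and Tap2. For genes of the other lists, 1591 of 1763 values stayed, 134 lost a call, 29 gained one and 9 changed sign. Likeness correlations ran from 0.824 to 0.998 over 12 settings, 25 correlations in all. Library totals were at least 42324200 counts, but single genes held few of them. In siCTL, Psmb9 had 150 to 192 counts and Usp18 8 to 20. For such genes counting error adds to the spread between 3 libraries.

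Against siCTL in GSK126, Tapbp became -0.00345 with RLE factors, -0.00302 with no filter, -0.00345 with DESeq2, -0.0071 with only the 2 groups and -0.0433 with the length trend removed. Psmb10 between siBcat and GSK126 became 0.0119 with RLE factors, 0.0122 with DESeq2, 0.0122 with only the 2 groups and 0.10 with the length trend removed. Psmb10 in siBcat became -0.0117 with library size only and -0.0116 with the length trend removed. With library size only, Canx in GSK126 became 0.0070. Removing the length trend turned, in GSK126, Psmb10 to -0.11, Psmb6 to -0.00413 and Pdia3 to -0.0199, and in siBcat, Jak1 to 0.0253, Psmb6 to -0.0139 and Canx to 0.00227. It also gave 2557 genes lower in GSK126 in place of 1419, 3981 genes higher in siBcat than in GSK126 in place of 2549, and 1 member lower in GSK126 (Tap2) in place of 0. Of all calls in GSK126, 57.1% were higher, and 40.8% with that trend removed; between siBcat and GSK126 the share was 46.8%, 60% with the trend removed and 33.4% with library size only.

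With each library left out in turn, members called lower in GSK126 ran from 0 to 1, members called higher in siBcat from 4 to 8, and members lower in siBcat than in GSK126 from 1 to 3. The log2 value in GSK126 ran from -0.0793 to 0.0553 for Tapbp, -0.0878 to 0.10 for Psmb10, -0.00683 to 0.14 for Stat2, -0.0312 to 0.0656 for Pdia3 and -0.00519 to 0.0838 for Erap1. Psmb10 ran from -0.0789 to 0.0989 in siBcat and from -0.091 to 0.11 between siBcat and GSK126, where B2m ran from -0.11 to 0.00306. Calls in siBcat against siCTL rose from 4666 to 6320 without GSK126 replicate 3, a library outside that comparison. They rose to 6074 in a fit of siBcat and siCTL alone. Both settings called 8 members higher in siBcat, in place of 7. The fit of GSK126 and siCTL alone gave 2477 calls in place of 3311.

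Samples with the same replicate number had correlations of -0.119 to 0.113 between their deviations from the group means, so the numbers were not taken to pair samples. With a replicate block, 3135 genes were called in GSK126, 4514 in siBcat and 5267 between the treated groups, against 3311, 4666 and 5450 without it. Members called higher and lower under the block were 5 and 0 in GSK126, 7 and 0 in siBcat, and 3 and 2 between the treated groups, where the Psmb9 call was lost (adjusted p = 0.0631).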
